A study of Arabidopsis thaliana with 2 samples.

Results

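The genes described here encode 10 enzymes of tetrapyrrole and chlorophyll synthesis in Arabidopsis thaliana, taken in pathway order from glutamate to chlorophyll. They were HEMA2, GSA1, HEMB1, hemb2, HEME1, HEME2, hemf2, CHLI2, CHLM and PORB. Members were found by their gene symbol in the probe annotation, and each had 1 probe set that named it alone, out of 13356 genes with such a probe set. The choice of members did not use their signals, although earlier results of these data were known when they were listed. Whole seedlings of the Landsberg erecta accession, with no other allele stated, were compared in 2 groups. The first group had 1 h of red light (630 nm transmission maximum, about 10 µmol per square metre and second) after 7 days in darkness, and the other had 1 h more of darkness. In both groups the seeds had been chilled for 2 days and lit with white light for 2 h before growth at 23 °C. Each group was a single pool of 5 seedlings on 1 Affymetrix array, so there was no replicate, and no test, error or p-value can be given.

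Tetrapyrroles are ring-shaped pigments and cofactors that plastids make from glutamate by way of 5-aminolevulinic acid (ALA). Apart from a branch to sirohaem that leaves earlier, the route is shared as far as protoporphyrin IX. There it splits into an iron branch to haem and the phytochrome chromophore and a magnesium branch to chlorophyll. In flowering plants the reduction of protochlorophyllide needs light, so dark-grown seedlings hold protochlorophyllide bound to its oxidoreductase and make chlorophyll only once lit. The formation of ALA is the step at which the flow into the route is mainly set, and an excess of free intermediates is harmful in light.

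The values are MAS5 signals, which are background-corrected summaries of the probes for one transcript on a linear intensity scale. Signals of different probe sets are not comparable as levels, so only the ratio between the arrays is compared between genes. Trimmed of 2% of probe sets at each end, the red light array and the dark array had the same mean signal of 500.0. The red light array had a median signal of 203 and the dark array one of 191. As the level of background served the brightest of 27 bacterial control probe sets, with a signal of 20.5 (red light) and 11.5 (dark). The 3' to 5' signal ratio of the control transcripts, a measure of RNA integrity and amplification, was 40.1 (red light) and 35.8 (dark) for one pair of actin controls, 6.55 (red light) and 8.44 (dark) for the other. The GAPDH pairs gave 2.06 (red light) and 2.11 (dark) and 1.60 (red light) and 2.05 (dark), and a ubiquitin pair gave 4.59 (red light) and 5.36 (dark). A gene counted as measured when the geometric mean of its 2 signals reached 102, the 40th percentile of probe sets, which left 7282 measured genes. Of the 10 seedling and tissue markers listed, 6 had a probe set of their own. PYK10, listed as a root marker, gave 7781 in red-lit and 9764 in dark seedlings. Of the genes listed for cotyledon and leaf, the Calvin cycle gene SBPASE gave 5305 in red-lit and 3459 in dark seedlings. PSBW, also listed for cotyledon and leaf, gave 2975 in red-lit and 1663 in dark seedlings. The signals of PYK10, SBPASE and PSBW lay far above the background level on both arrays. The root hair expansins EXPA7 (8.8 in red-lit, 26.4 in dark seedlings) and EXPA18 (13.5 in red-lit, 52.3 in dark seedlings) lay under the background level after red light. ICL, an isocitrate lyase gene of seed oil use, had a signal of 855.6 after red light, against 4352 in the dark. These marker signals differed along with the groups, and their part in the results below was not tested.

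Enzymes on the same route differed in direction between the 2 arrays. Of the 10 genes, 6 had a higher signal after red light and 4 a higher signal in the dark. Among the 9 measured ones the counts were 5 and 4, where 50.1% of all measured genes were above 0 and 49.9% below. Of the 10 genes, 6 were less than 1.5-fold apart between the arrays, so their directions rest on small differences. The signal of hemb2 was 6.60-fold lower after red light, and hemf2, PORB and GSA1 were lower by 1.91-fold, 1.78-fold and 1.41-fold. HEME1, CHLM and HEME2 were higher after red light by 1.55-fold, 1.39-fold and 1.38-fold. HEMA2 was 1.25-fold higher, and CHLI2 and HEMB1, with log2 ratios of 0.14 and 0.10, were the closest to even. The log2 ratios of HEMA2, CHLI2 and HEMB1 were under 0.37. That was the SD for a single probe set, estimated from 37 pairs of probe sets naming the same gene. In bulk seedlings, fewer cells of a type and less RNA per cell cannot be told apart.

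**Figure D1:**
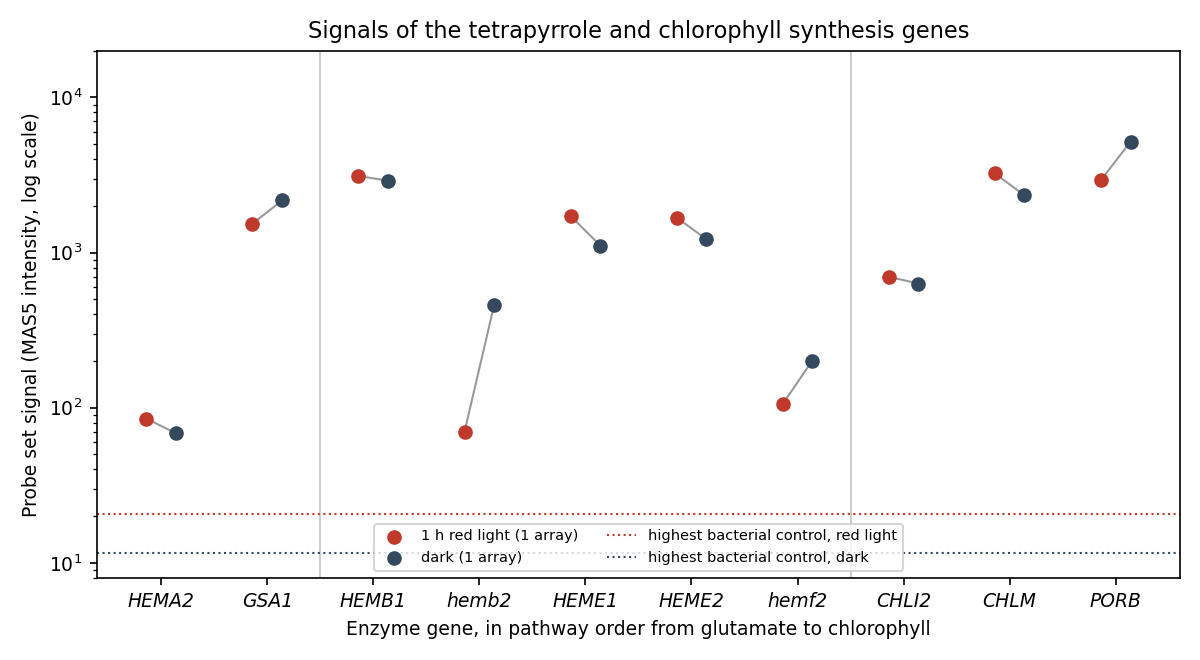
Signal of each enzyme gene (MAS5 intensity, log scale) after 1 h of red light (red, left point of each pair) and in the dark (blue, right point), 1 array each, in pathway order; vertical lines part the steps to ALA, to protoporphyrin IX and to chlorophyll. The pair for hemb2 is the steepest, at 70.0 after red light, against 461.9 in the dark, and all signals lie above the highest bacterial controls (dotted).

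The first steps turn glutamate, carried on its transfer RNA, into ALA. HEMA2 (AT1G09940, probe set 264660_at) encodes a glutamyl-tRNA reductase, the enzyme at which ALA formation is mainly controlled, in the form known mostly from roots and other non-green tissue. Its signal was 85.1 after red light, against 68.2 in the dark, which is a log2 ratio of 0.32. The red light signal was 4.15 times and the dark signal 5.93 times the background level of its array, but HEMA2 was the 1 gene of the 10 that fell short of the filter on low signals. GSA1 (AT5G63570, 247392_at) encodes the glutamate-1-semialdehyde aminotransferase that completes ALA. Its signal was 1537 after red light, against 2167 in the dark, a log2 ratio of -0.50. Of the 7282 measured genes 902 had a lower ratio than GSA1. HEMA2 and GSA1, whose enzymes catalyse consecutive reactions, thus lay on opposite sides of 0, though the arrays differed for HEMA2 by only 16.9 signal units.

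The second stretch runs from ALA to protoporphyrin IX, and 5 of the genes belong to it. HEMB1 (AT1G69740, 260370_at) encodes an ALA dehydratase, which joins a pair of ALA molecules to porphobilinogen. It had a bright signal on both arrays, 3117 after red light, against 2903 in the dark, and its log2 ratio was 0.10. Its paralogue hemb2 (AT1G44318, 245245_at), annotated to the same reaction, had a signal of 70.0 after red light, against 461.9 in the dark, a log2 ratio of -2.72. It was the single gene of the 10 at least 2-fold lower, where 2.44% of measured genes were, and none of the 10 was at least 2-fold higher, where 4.82% of measured genes were. It was also the single gene at least 3-fold lower, where 0.755% of measured genes were, and none was at least 3-fold higher, where 1.28% were. Among the 7282 measured genes 10 had a lower ratio than hemb2. Its red light signal was 3.41 times the highest bacterial control of that array. That signal lay under 102, and hemb2 counted as measured because of its signal in the dark. With a pseudocount of 22.1 its log2 ratio was -2.39, and the gene drops out with a filter at the 60th percentile.

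The ALA dehydratase paralogues differed in log2 ratio by 2.83, a 7.09-fold difference in the red to dark ratio between them. Both ratios come from the same 2 arrays, so no scaling by a constant can alter their difference. As a yardstick for how far 2 probe sets can disagree on these arrays, 37 pairs of measured probe sets that name the same gene differed by a median of 0.27 and at most by 1.60. The difference between HEMB1 and hemb2 is set beside them as a description only, since hemb2 passed the signal filter through the array on which it was high. It was 3.01 with loess and 2.50 with the pseudocount. The 37 pairs were not matched on signal, and they hold the disagreement of probes on 1 pair of arrays with no spread between seedlings.

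HEME1 (AT3G14930, 257219_at) and HEME2 (AT2G40490, 255826_at) both encode uroporphyrinogen decarboxylase, which trims the side chains of the first closed ring. The signal of HEME1 was 1719 after red light, against 1110 in the dark, a log2 ratio of 0.63. HEME2 had a signal of 1680 after red light, against 1221 in the dark, a log2 ratio of 0.46. Both paralogues were thus higher after red light. HEME1 was the highest in ratio of the 10 genes, with 823 of the 7282 measured genes above it, and it was the 1 gene at least 1.5-fold higher, where 12.7% of measured genes were. The log2 ratios of the pair differed by 0.17, and 24 of the 37 same-gene pairs of probe sets differed by more.

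**Figure D2:**
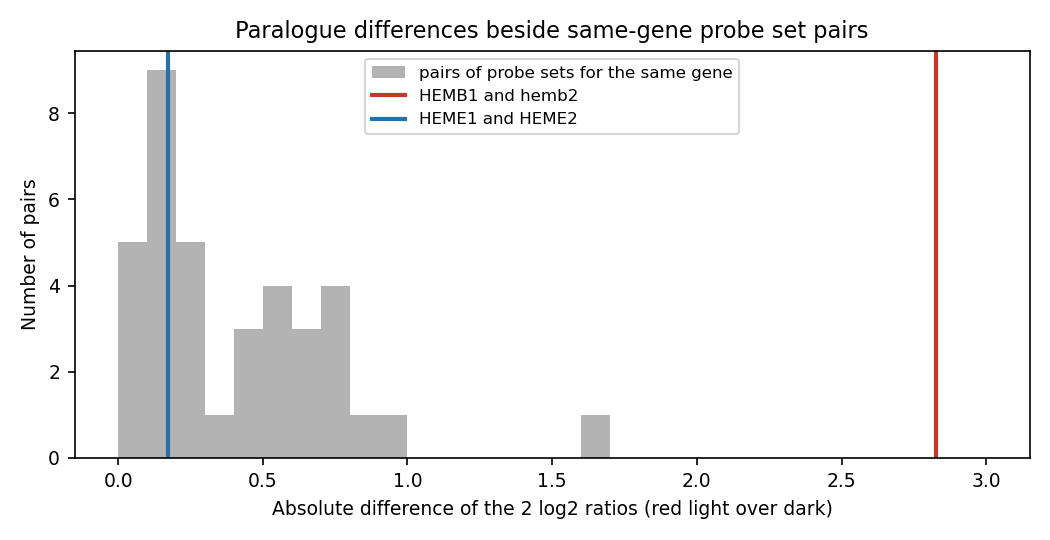
Absolute difference between the log2 ratios (red light over dark) of 37 pairs of measured probe sets that name the same gene (grey bars, number of pairs), with the paralogue pairs as vertical lines. The line for HEME1 and HEME2, at 0.17, stands among the bars, and the line for HEMB1 and hemb2 stands at 2.83, with the widest same-gene pair at 1.60 (a description, as the pairs were not matched on signal).

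Coproporphyrinogen oxidase, the next enzyme on the list, removes carboxyl groups from further side chains of the ring. Its gene hemf2 (AT4G03205, 255402_at) had a signal of 105.5 after red light, against 201.3 in the dark, a log2 ratio of -0.93. With loess and with quantile normalization its log2 ratio was -1.03, past 2-fold, and with centring on the hybridization controls it was -0.63. Of the 7282 measured genes 226 had a lower ratio. Both lower genes of this stretch, hemb2 and hemf2, belonged to the dimmest of 5 equal classes into which the measured genes were split by signal, and the SD of the log2 ratio over its 1457 genes was 0.70. In that class 6 genes had a lower ratio than hemb2 and 65 a lower ratio than hemf2. The place of hemb2 there is a description only, since it passed the signal filter through its dark signal. The genes of this stretch that were higher (HEMB1, HEME1 and HEME2) were in the brightest class, where the SD was 0.45. Within this stretch brightness and direction went together, but the class was set by the same signals that give the ratio. A low red light signal in itself moves a gene towards a dimmer class. Over all measured genes the median log2 ratio was 0.11 in the dimmest class and -0.10 in the brightest. The part of signal level in the directions was not tested.

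**Figure D3:**
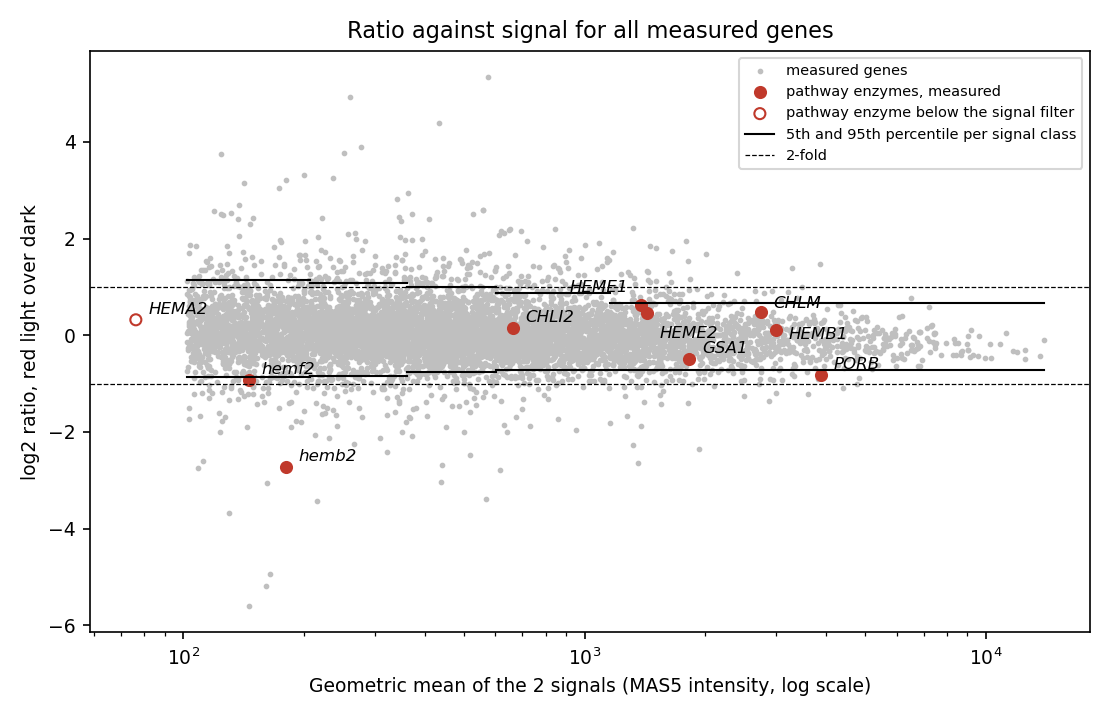
Log2 ratio of red light over dark against the geometric mean of both signals (MAS5 intensity, log scale) for 7282 measured genes (grey), the 9 measured enzyme genes (red) and HEMA2, which lay below the signal filter (open circle); black lines mark the 5th and 95th percentiles in each of 5 classes of signal and dashed lines 2-fold. The genes hemb2, hemf2 and PORB lie below the 5th percentile of their class, and none lies above the 95th (for hemb2 a description, as it passed the filter through its dark signal).

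The magnesium branch had 3 of the genes. CHLI2 (AT5G45930, 248920_at) encodes an ATP-binding I subunit of the magnesium chelatase, which puts magnesium into protoporphyrin IX. It had a signal of 697.6 after red light, against 631.5 in the dark, a log2 ratio of 0.14. CHLM (AT4G25080, 254105_at) encodes the methyltransferase that acts next, on magnesium protoporphyrin IX. Its signal was 3240 after red light, against 2336 in the dark, a log2 ratio of 0.47, with 1243 measured genes higher in ratio. The branch ends in this list with PORB (AT4G27440, 253871_at), a protochlorophyllide oxidoreductase that holds its substrate in darkness and reduces it upon light. PORB lay at percentile 98.5 of all probe sets of the dark array, and its signal was 2922 after red light, against 5189 in the dark. This is a log2 ratio of -0.83.

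Of the 7282 measured genes 310 had a lower ratio than PORB. In the brightest class of 1457 genes, to which it belonged, 47 had a lower ratio, and the 5th percentile of that class was -0.72. PORB stayed under 2-fold in every scaling tried, with log2 ratios between -0.89 and -0.53. CHLM, with a ratio above 0, was in the brightest class too. Together with hemb2 and hemf2, PORB made up the 3 genes at least 1.5-fold lower, where 8.95% of measured genes were. For hemb2 this is a description only, since it passed the signal filter through its dark signal.

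Over the 10 genes the median log2 ratio was 0.12, and over the 9 measured ones it was 0.10, beside 0.00 over all measured genes. Since hemb2 was measured through its dark signal alone, these medians are given as a description. By stretch of the pathway, the 5 genes from ALA to protoporphyrin IX had a median of 0.10 and ran from -2.72 to 0.63. The 3 genes of the magnesium branch had a median of 0.14 and ran from -0.83 to 0.47. No stretch with more than 1 measured gene had all of them on the same side of 0. Of all measured genes 50.1% were above 0 and 49.9% below, so this mix is a description only. Of the 9 measured genes 6 lay within the central 90% of ratios in their own class of signal and 3 lay below it. For hemb2, which is among those below, this too is a description only.

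Each of the 10 genes kept its direction under median centring, loess, quantile normalization, the pseudocount and centring on the hybridization controls, the 5 alternatives that could alter the ratio of a gene with a single probe set. For the pseudocount this was fixed in advance, since it cannot change a sign. The same holds for ratios above 0 under centring on the hybridization controls. It holds too for ratios below 0 under median centring, which lowered every ratio. HEMB1 came closest to 0 under median centring, at 0.05, and was at 0.40 with centring on the hybridization controls. That last setting, known from an earlier analysis of these arrays, adds 0.30 to every ratio, because -0.30 was the median log2 ratio of the 18 hybridization controls, 17 of which were dimmer on the red light array. Under it HEME1 reached 0.93, CHLM 0.77 and HEME2 0.76, while GSA1 was at -0.20 and PORB at -0.53, beside a median over all genes of 0.30. Relative to that shift the order of the genes is unchanged.

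**Figure D4:**
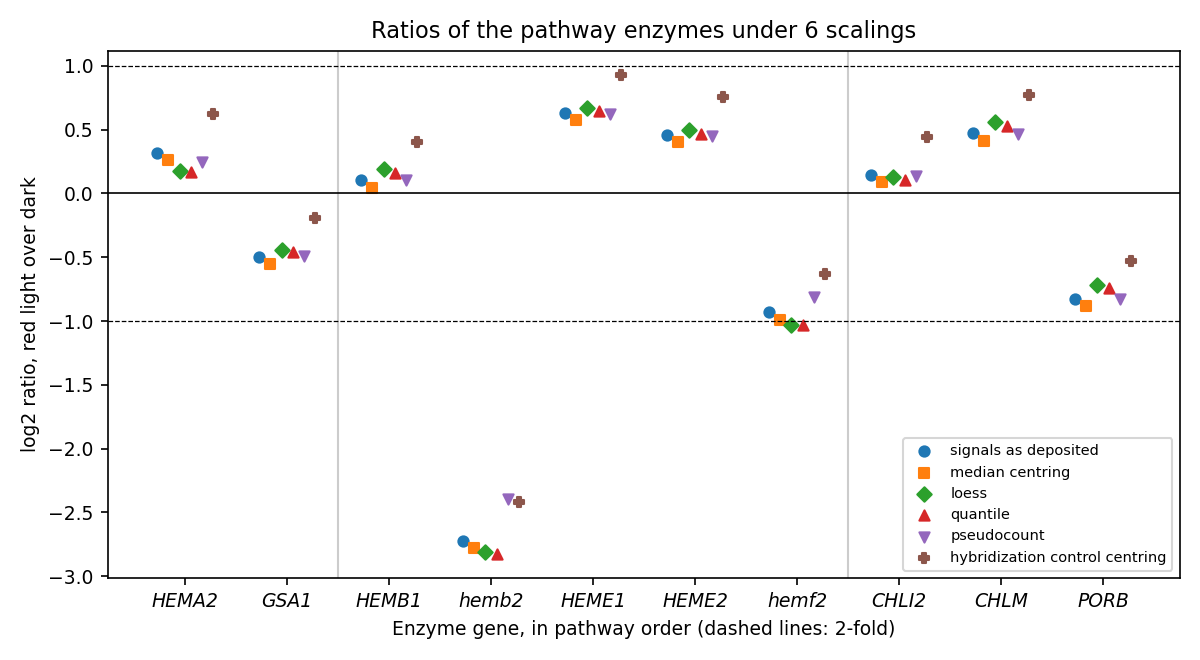
Log2 ratio of red light over dark for each enzyme gene in pathway order, with the signals as deposited and under 5 other scalings (symbols); dashed lines mark 2-fold. No gene crosses 0, hemb2 lies between -2.83 and -2.39, and hemf2 lies on both sides of the lower 2-fold line.

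Other genes of the pathway were read from a list of 39 that covers the supply of ALA, the common steps, the magnesium, haem and sirohaem branches and chlorophyll breakdown. In the annotation used here 4 of them had a probe set that named them alone, and the other 35, HEMA1, GSA2, CHLI1, PORA and PORC among them, are not analysed here. Of the 4, 3 were measured, and none of these was 1.5-fold apart, and so none 2-fold. Most measured genes fell short of 1.5-fold too, with 12.7% past it on the higher side and 8.95% on the lower. For 2-fold these shares were 4.82% and 2.44%. With 3 genes, finding none is a description only. AT1G74470, which encodes the geranylgeranyl reductase (CHLP) that makes the phytol tail of chlorophyll, had a signal of 7945 after red light, against 6814 in the dark, a log2 ratio of 0.22. NOL, a chlorophyll b reductase gene of chlorophyll breakdown, had 756.2 after red light, against 545.7 in the dark, a log2 ratio of 0.47. SIRB, the ferrochelatase gene of sirohaem synthesis, had 562.2 after red light, against 627.9 in the dark, a log2 ratio of -0.16. HEMA3, a further glutamyl-tRNA reductase gene, had 10.8 after red light, against 13.2 in the dark, at or near background on both arrays, and no fold is given.

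Chlorophyll is held in the photosystems and their antennae, so nuclear genes with photosystem and antenna symbols were set beside the enzymes. The list goes by symbol alone and is not one of chlorophyll-binding proteins. All symbols that begin with PSA, PSB, LHCA or LHCB were taken, which gave 8 genes, all measured. Their median log2 ratio was 0.70, with a range from -0.02 to 1.43, against a median of 0.10 over the measured enzymes. Of the 8 genes 7 were above 0, where 50.1% of measured genes were, and 2 were at least 2-fold higher, where 4.82% were. The difference between the lists was not tested, since each group had 1 array.

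**Figure D5:**
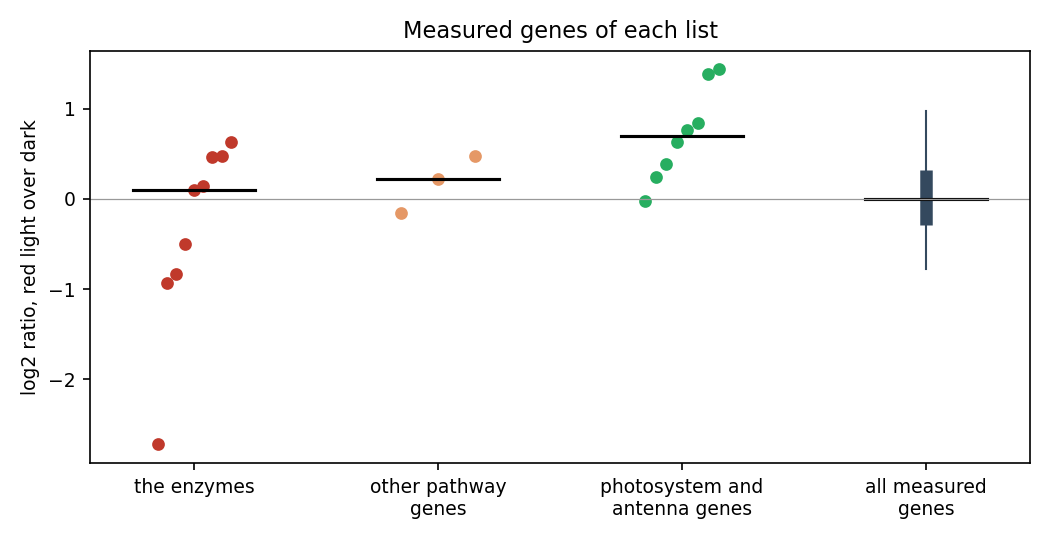
Log2 ratio of red light over dark for each measured gene (points) of the enzymes, the other pathway genes and the nuclear photosystem and antenna genes, with the median of each list as a black line, beside the median, the 25th to 75th and the 5th to 95th percentiles of all 7282 measured genes. The 9 enzymes spread to both sides of 0 around a median of 0.10, while the photosystem and antenna genes have a median of 0.70.

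The measured genes nearest to hemb2 in both log2 ratio and mean signal were AT2G37670, AT1G14960 and the expansin gene EXPA9. AT2G37670 had a signal of 56.2 after red light, against 467.4 in the dark, AT1G14960 had 45.4 in red-lit and 277.2 in dark seedlings, and EXPA9 had 104.3 in red-lit and 437 in dark seedlings. Over 2 arrays such likeness means a similar pair of signals and no more.

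The chromosomal surroundings of the enzyme genes were read from gene order in the TAIR10.1 gene table. The nearest measured gene on each side of each of the 10 genes gave 20 neighbours, with a median log2 ratio of -0.12 and a range from -1.25 to 1.82. Of these, 8 were the next protein-coding gene, and the others lay further off, up to 8 genes away. Of these neighbours 2 were past 2-fold on the higher side, where 4.82% of measured genes were, and 1 on the lower side, where 2.44% were. For 4 genes (GSA1, HEMB1, CHLI2 and PORB) both neighbours lay on the same side of 0 as the gene itself. For 3 genes (HEMA2, hemb2 and CHLM) both lay on the other side, and for the remaining 3 the neighbours were split. Since 50.1% of all measured genes were above 0 and 49.9% below, these counts are a description only.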

How the data were processed

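The authors deposited, for 1 array per group, MAS5 (version 5) signal intensities on a linear scale. The tool is named in the submitters' processing notes, with settings not given in the sources used here. RNA (20 ng) was amplified isothermally and biotin-labelled per the labels' protocols. Genes were named through GEO's probe annotation and a TAIR10.1 gene table. Probe sets naming 1 gene (13513) were used, those naming several (503) or unlisted (8730) were not. No genome build is named, so no coordinates are given, and no sequences were used here.

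Signals under 1 were set to 1, log2 was taken, and red light minus dark was computed per probe set and averaged per gene. The filter, the 2-fold limit and the alternatives (median centring, loess with span 0.3, quantile normalization, a pseudocount at the 25th percentile, other filters, probe sets and thresholds) are those of the text. The named genes were the 10 enzymes, other pathway genes with a probe set, and the 3 genes nearest to a member at least 2-fold apart. The members and lists were chosen with earlier results of these data known, and the photosystem and antenna genes, the chromosomal neighbours and the same-gene pairs were added after the values had been seen. With 1 array per group, batch and group cannot be told apart, and so few arrays limit the precision. The steps were tested on simulated data. Python 3.11.15, numpy 2.4.6, pandas 2.3.3 and statsmodels 0.14.6 were used.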

Additional observations from a re-analysis of the deposited data

How the results depend on the processing

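No paired analysis was possible because red light and dark had 1 array each. The 5 alternatives that could alter an enzyme's ratio (the rescalings and the pseudocount) gave 50 values, of which 0 changed sign. Part of this was fixed in advance. The pseudocount cannot change a sign. Centring on the hybridization controls raised every ratio, so it cannot turn a positive one negative. Median centring lowered every ratio, so it cannot turn a negative one positive. None of the values moved by as much as 0.37, the SD of a single probe set's log2 ratio estimated from the 37 same-gene pairs. That SD describes disagreement between probe sets and does not measure the effect of scaling. Each enzyme had a single probe set, so the other filters and choices of probe set could only keep or drop it. With the signals as deposited 1 enzyme was at least 2-fold lower and 0 were at least 2-fold higher. The lower enzyme was hemb2, which passed the signal filter through its dark signal, so counts that include it are a description only. The count of lower enzymes was 2 with loess and with quantile normalization, which added hemf2, and 0 with the filter at the 60th percentile, which left 7 enzymes and removed hemb2 and hemf2. At 1.5-fold 3 were lower and 1 was higher, and at 3-fold 1 was lower and 0 higher. Among all measured genes 351 (4.82%) were higher and 178 (2.44%) lower with the signals as deposited. The counts over all genes were 303 and 202 with loess, and 290 and 214 with quantile normalization. With centring on the hybridization controls they were 705 and 91. They were 1628 and 1165 without a filter, and 172 and 89 under the 60th percentile filter. The 1.5-fold limit gave 925 (12.7%) and 652 (8.95%), and the 3-fold limit 93 (1.28%) and 55 (0.755%). Centring on the hybridization controls moved the share of higher genes among those called to 88.6%, against 66.4% for the signals as deposited. The dim signals of HEMA2, hemb2 and hemf2 limit what can be said of them.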
